A study of Mus musculus with 7 samples.

Results

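Genes that control how the liver takes up, stores, burns and makes glucose were followed in whole mouse liver after deletion of Dicer1 in hepatocytes. The set was defined by gene name, with earlier results of these data known. It holds 9 genes, of which 8 had a named probe set among the 16819 genes measured. These were the transporter gene Slc2a2, the glycolytic genes Pfkfb3 and Pklr, the glycogen synthase gene Gys2, the gluconeogenic genes G6pc, Fbp1 and Pck1, and the insulin signalling gene Irs2. No probe set carried the name Pfkfb1 in the annotation used, and that gene is not analysed here. Each of the 8 genes had 1 probe set.

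The 7 arrays came from male mice, of mixed C57BL/6 and 129S4 descent, that carried Dicer1 fl/fl alleles, so the control livers were floxed as well. The 3 control arrays (0 weeks) had genotype Dicer1 fl/fl, and the 2 arrays at 2 weeks and 2 at 4 weeks came from Dicer1 fl/fl mice that had received AAV8-Ttr-Cre. This adeno-associated virus expresses Cre recombinase from the promoter of transthyretin, a protein made by hepatocytes, and the mice were 8 to 10 weeks old when they received it. Other liver cells were not the target and kept their Dicer1 alleles as far as the promoter is restricted to hepatocytes. All livers were taken after a fast of 4 hours. Group, virus, time and age changed together, since no mice with a virus lacking Cre and no controls at the later times were among the arrays, so their parts in a difference cannot be told apart.

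In the fed liver, glucose enters hepatocytes through the transporter that Slc2a2 encodes, and insulin directs it into glycogen and glycolysis. In fasting, glucagon turns the flow round: glycogen is broken down and new glucose is built from lactate, glycerol and amino acids, with phosphoenolpyruvate carboxykinase, fructose bisphosphatase and glucose-6-phosphatase as the committed steps. The bifunctional enzyme of Pfkfb3 makes fructose-2,6-bisphosphate, the strongest activator of glycolytic phosphofructokinase, and the pyruvate kinase of Pklr closes the glycolytic pathway.

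The promoters of 4 of these genes are shown because they carry known or candidate regulatory words of glucose, clock and glucagon control. RefSeq (build GRCm38.p6) gave windows of 300 bases, from 250 before to 50 after an annotated start site, for 8 of the 9 genes, 13 windows in all; Gys2 had none. Short words were placed in capitals in the windows below. In Pklr the capitals mark a pair of E-box-like words, CACGNG and CNCGTG, 5 bases apart, the arrangement known as a carbohydrate response element. In Pfkfb3 and Irs2 they mark the E-box CACGTG, which clock and carbohydrate response factors bind. In Pck1 they mark CGTCA, the reverse strand of the cAMP response half-site TGACG.

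Pklr, chr3:89136373-89136672, plus strand: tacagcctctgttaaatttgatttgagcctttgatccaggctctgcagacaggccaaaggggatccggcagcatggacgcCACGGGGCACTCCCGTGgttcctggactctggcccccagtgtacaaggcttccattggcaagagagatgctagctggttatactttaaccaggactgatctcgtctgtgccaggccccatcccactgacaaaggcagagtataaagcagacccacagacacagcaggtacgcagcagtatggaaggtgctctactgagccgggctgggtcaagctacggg

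Pfkfb3, chr2:11502041-11502340, minus strand: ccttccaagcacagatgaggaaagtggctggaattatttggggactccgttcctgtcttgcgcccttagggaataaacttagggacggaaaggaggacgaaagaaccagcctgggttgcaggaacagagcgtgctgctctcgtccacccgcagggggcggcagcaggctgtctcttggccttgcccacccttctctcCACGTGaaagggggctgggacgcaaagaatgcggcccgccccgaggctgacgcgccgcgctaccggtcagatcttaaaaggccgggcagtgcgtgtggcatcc

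Irs2, chr8:11008880-11009179, minus strand: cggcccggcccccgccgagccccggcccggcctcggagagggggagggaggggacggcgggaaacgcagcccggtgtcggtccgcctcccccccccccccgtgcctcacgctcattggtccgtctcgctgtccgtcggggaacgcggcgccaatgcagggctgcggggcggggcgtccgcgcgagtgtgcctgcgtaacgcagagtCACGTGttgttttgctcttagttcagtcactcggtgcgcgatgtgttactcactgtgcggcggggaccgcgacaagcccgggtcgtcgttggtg

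Pck1, chr2:173152823-173153122, plus strand: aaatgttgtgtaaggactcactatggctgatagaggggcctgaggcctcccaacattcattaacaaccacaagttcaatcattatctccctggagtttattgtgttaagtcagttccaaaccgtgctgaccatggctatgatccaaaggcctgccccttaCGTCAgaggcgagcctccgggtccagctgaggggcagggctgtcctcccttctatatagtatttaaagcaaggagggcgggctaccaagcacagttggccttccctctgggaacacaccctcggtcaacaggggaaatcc

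The paired element of Pklr spans bases -170 to -154 from the start site, and 15 of all 32851 RefSeq windows of this length (0.0457%) held such a pair on either strand. This word was added after the Pklr window had been read. The E-box lies at -53 to -48 in the Pfkfb3 window and at -44 to -39 in that of Irs2. It was present in 2 of the 13 windows of these genes and in 7.15% of all windows. The cAMP response half-site of Pck1 lies at -90 to -86, and 20.8% of all windows held that word; it was also present in both windows of Pfkfb3. The paired element can include an E-box, so those 2 words can overlap. These matches describe the letters of the windows, and no binding was measured here.

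The deleted gene checked the labels. Dicer1 had log2 signals of 8.73, 8.71 and 8.58 in controls, 8.03 and 7.79 in Cre 2 wk livers, and 7.97 and 8.05 in Cre 4 wk livers, 1.70-fold lower at 2 weeks (adjusted p = 0.0158) and 1.58-fold lower at 4 weeks (adjusted p = 0.0159). The exons under its probes were not looked up. Hepatocyte markers were present on all arrays: 8 of 10 listed markers were measured, and the summed log2 signal of the 8 ran from 110.8 to 110.9 on control arrays and from 110.7 to 111.0 after Cre. Among 32 measured markers of other cells (Kupffer, stellate, endothelial, bile duct, immune, and muscle, fat or pancreas), 0 passed the limma threshold at 2 weeks, with 5 at an unadjusted p under 0.05, and 2 passed at 4 weeks, Clec4g of endothelial cells and Sox9 of bile duct cells, both higher. The stellate cell markers summed to between 58.8 and 59.2 on control arrays and to between 60.0 and 60.9 after Cre. Their part in the results below was not tested.

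Of the 8 genes, 5 differed from control at both times, and the same 5 at each: Slc2a2, Pfkfb3, Pklr and Gys2 were lower and Irs2 was higher. In the same fits 5.93% of all genes passed at 2 weeks (3.46% higher and 2.47% lower) and 9.77% at 4 weeks (5.15% higher and 4.62% lower; limma, adjusted p under 0.05), and 4.82% passed at both. At an unadjusted p under 0.05, 5 of the 8 differed at 2 weeks and 7 at 4 weeks, against 23% and 24.8% of all genes. Control and Cre arrays did not overlap for 5 of the 8 genes at 2 weeks, against 34.9% of all genes (17.3% higher, 17.5% lower). At 4 weeks they did not overlap for 7, G6pc and Fbp1 being the other two, against 39.8% (21.6% higher, 18.2% lower). For 5 of the 8 no array after Cre overlapped the controls at either time, against 25.1% of all genes (12.9% higher, 12.2% lower). Both comparisons share the 3 control arrays. These shares are over genes of every level, while each of the 8 had a mean above that of at least 57.7% of genes. With only genes above the median level kept, the same 5 passed at each time. More genes passed in that refit, 1720 at 2 weeks and 2226 at 4 weeks against 997 and 1643, out of fewer tested. The contrast with genes of like level is thus smaller. The 3 genes of glucose production, G6pc, Fbp1 and Pck1, did not pass at either time. The median log2 difference over the 8 genes was -0.49 at 2 weeks and -0.32 at 4 weeks, against medians of 0.00 and 0.01 over all genes.

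**Figure D1:**
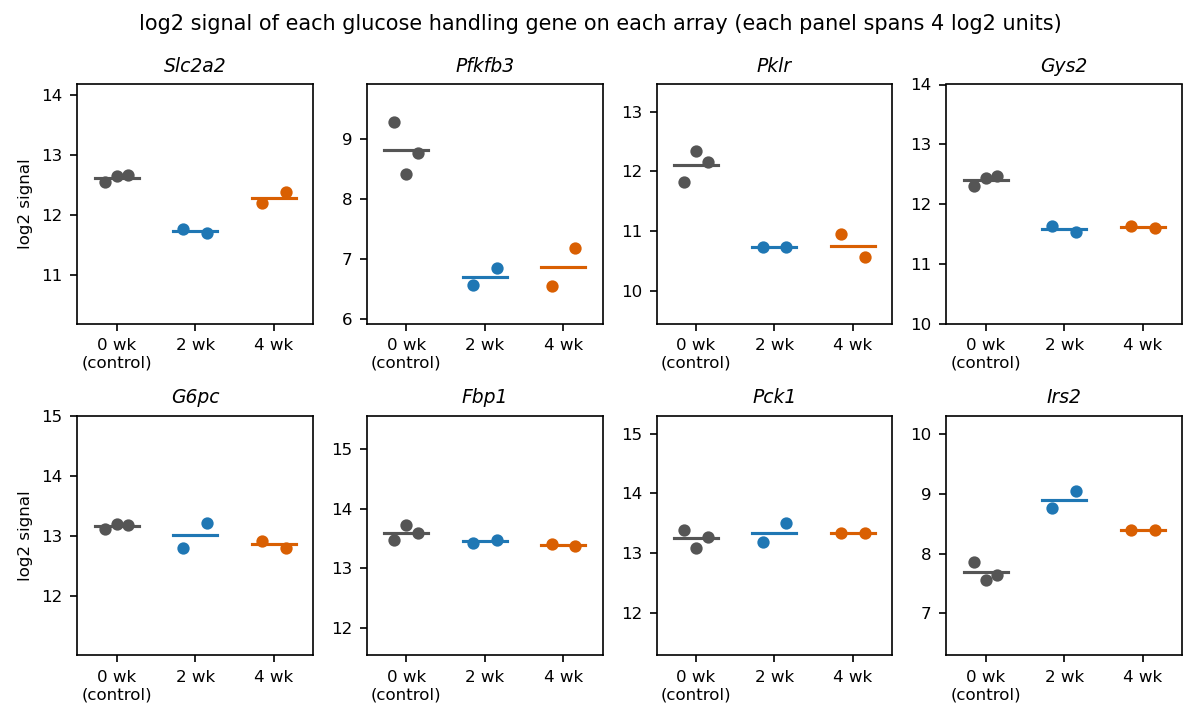
Log2 signal (vertical axis) of the 8 glucose handling genes on each of the 7 arrays, by week after AAV8-Ttr-Cre (horizontal axis); points are arrays, horizontal lines are group means, and each panel spans 4 log2 units. Slc2a2, Pfkfb3, Pklr and Gys2 lie lower and Irs2 higher on all arrays after Cre than on any control array, while the arrays after Cre as a whole overlap the controls for G6pc, Fbp1 and Pck1.

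Glucose uptake and release through the cell membrane depend on GLUT2, the product of Slc2a2. Slc2a2 read 12.55, 12.65 and 12.66 in control livers, 11.77 and 11.70 in Cre 2 wk livers, and 12.19 and 12.38 in Cre 4 wk livers. All arrays after Cre were below the controls, and those at 4 weeks lay between the controls and those at 2 weeks. Slc2a2 was 1.84-fold lower at 2 weeks (log2 -0.88, SE 0.07, adjusted p = 0.00732, n = 3 and 2) and 1.26-fold lower at 4 weeks (log2 -0.33, SE 0.07, adjusted p = 0.0443). In whole liver, fewer cells of a type and less RNA per cell cannot be told apart from the level of 1 gene. The 8 measured hepatocyte markers differed from control by -0.09 to 0.22 log2 units at 2 weeks and by -0.11 to 0.22 at 4 weeks, and 0 of them passed by limma at either time, with 1 at an unadjusted p under 0.05 at each. The call at 2 weeks was lost without control replicate 3 (adjusted p = 0.0533). At 4 weeks it was lost when any 1 of the 7 arrays was left out, with log2 differences from -0.43 to -0.24 and adjusted p-values from 0.0655 to 0.145, and in the fit of these groups alone (0.0655).

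Pfkfb3 had the largest fall of the set. Its log2 signal was 9.29, 8.42 and 8.78 in controls, 6.56 and 6.85 in Cre 2 wk livers, and 6.55 and 7.19 in Cre 4 wk livers. The lowest control array lay more than a log2 unit above the highest array after Cre, although the controls themselves spread over 0.88 log2 units. Pfkfb3 fell 4.37-fold at 2 weeks (log2 -2.13, SE 0.31, adjusted p = 0.0251) and 3.89-fold at 4 weeks (log2 -1.96, SE 0.31, adjusted p = 0.0217). Only 27 and 44 of the 16819 genes had a larger absolute log2 difference at these times. The call at 2 weeks was lost when any 1 array was left out (log2 -2.33 to -1.90, adjusted p from 0.0572 to 0.0987). At 4 weeks it was lost without control replicate 1, 2 or 3 (0.0574, 0.0524 and 0.0825) and without Cre 4 wk replicate 1 or 2 (0.111 and 0.0787).

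Pklr encodes the liver and red cell form of pyruvate kinase, which makes pyruvate and ATP in the closing step of glycolysis. Its log2 signal was 11.83, 12.34 and 12.16 in controls, 10.74 and 10.73 in Cre 2 wk livers, and 10.95 and 10.57 in Cre 4 wk livers. Both arrays at 2 weeks read nearly alike, and the 4 week arrays lay on either side of them. Pklr was 2.59-fold lower at 2 weeks (log2 -1.37, SE 0.18, adjusted p = 0.0198) and 2.55-fold lower at 4 weeks (log2 -1.35, SE 0.18, adjusted p = 0.0158). The 2 week call was lost without control replicate 2 (adjusted p = 0.0717), control replicate 3 (0.0901), Cre 2 wk replicate 2 (0.0851) or either 4 week array (both 0.0505). The 4 week call was lost without control replicate 2 (0.0547), control replicate 3 (0.0674), Cre 4 wk replicate 1 (0.0689) or Cre 4 wk replicate 2 (0.0864).

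Gys2, the liver glycogen synthase that adds glucose units to glycogen, also fell. Its controls read 12.30, 12.44 and 12.47, with 11.64 and 11.53 in Cre 2 wk livers, and 11.63 and 11.60 in Cre 4 wk livers. All 4 arrays after Cre fell within a narrow band beneath the lowest control. Gys2 was 1.77-fold lower at 2 weeks (log2 -0.82, SE 0.07, adjusted p = 0.00789) and 1.72-fold lower at 4 weeks (log2 -0.79, SE 0.07, adjusted p = 0.00851). The 2 week call was lost without control replicate 3 (adjusted p = 0.0521). The 4 week call was lost without Cre 4 wk replicate 1 or 2 (0.0618 and 0.0617).

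The genes of the committed steps of glucose production did not pass at either time, although G6pc and Fbp1 lay below all controls at 4 weeks. The difference of G6pc at that time (log2 -0.31) was near that of Slc2a2 (-0.33), which passed. G6pc, the catalytic unit of glucose-6-phosphatase that frees glucose for export, read 13.12, 13.19 and 13.18 in controls, 12.80 and 13.22 in Cre 2 wk livers, and 12.92 and 12.79 in Cre 4 wk livers. One 2 week array was above all controls and the other below them. The log2 difference was -0.16 at 2 weeks (95% interval -0.47 to 0.16, adjusted p = 0.519) and -0.31 at 4 weeks (SE 0.13, adjusted p = 0.201), where both arrays lay below the controls. G6pc passed at 4 weeks when the fit held only these groups or lacked either 2 week array (adjusted p = 0.0388 in each).

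Fbp1, the fructose bisphosphatase that opposes phosphofructokinase, read 13.48, 13.72 and 13.60 in controls, 13.42 and 13.48 in Cre 2 wk livers, and 13.40 and 13.38 in Cre 4 wk livers. The arrays after Cre sat at the lower edge of the control range or under it. Its log2 difference was -0.15 at 2 weeks (95% interval -0.33 to 0.04, adjusted p = 0.321) and -0.21 at 4 weeks (95% interval -0.40 to -0.02, adjusted p = 0.16). Pck1, the carboxykinase that turns oxaloacetate into phosphoenolpyruvate, read 13.39, 13.08 and 13.27 in controls, 13.18 and 13.51 in Cre 2 wk livers, and 13.33 and 13.34 in Cre 4 wk livers. Its groups overlapped throughout. The log2 difference of Pck1 was 0.10 at 2 weeks (95% interval -0.22 to 0.41, adjusted p = 0.7) and 0.09 at 4 weeks (95% interval -0.23 to 0.40, adjusted p = 0.735). The intervals bound a fall of Pck1 at 0.22 and 0.23 log2 units, well short of the falls of Pfkfb3 and Pklr.

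Irs2, the docking protein that links the insulin receptor to phosphatidylinositol 3-kinase in hepatocytes, was the 1 gene of the set that rose. Its log2 signal was 7.87, 7.56 and 7.65 in controls, 8.76 and 9.05 in Cre 2 wk livers, and 8.39 on both Cre 4 wk arrays. Every array after Cre was above every control, and the 2 week arrays were above those at 4 weeks. Irs2 rose 2.32-fold at 2 weeks (log2 1.21, SE 0.12, adjusted p = 0.0126) and 1.62-fold at 4 weeks (log2 0.70, SE 0.12, adjusted p = 0.0282). The 2 week call was lost without control replicate 2 (adjusted p = 0.0531), control replicate 3 (0.0662) or Cre 2 wk replicate 2 (0.0508). The 4 week call was lost without control replicate 2 (0.0878), control replicate 3 (0.103), Cre 4 wk replicate 1 (0.132) or Cre 4 wk replicate 2 (0.137).

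**Figure D2:**
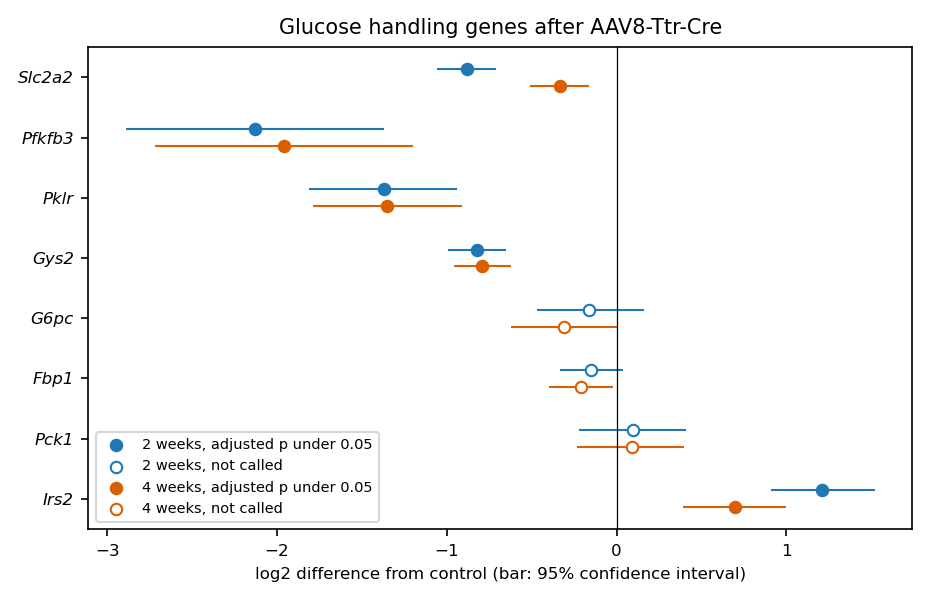
Log2 difference from control (horizontal axis) of the 8 genes at 2 and 4 weeks after the virus, with 95% confidence intervals of the limma fit; filled points passed an adjusted p of 0.05 and open points did not. Pfkfb3 lies farthest to the left (-2.13 and -1.96), Irs2 to the right (1.21 and 0.70), and Slc2a2 and Irs2 lie nearer to 0 at 4 weeks than at 2 weeks.

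With the mean of both times set against control, the same 5 genes passed, against 12.9% of all genes (6.79% higher and 6.12% lower). The log2 differences were -2.04 for Pfkfb3 (SE 0.26, adjusted p = 0.01), -1.36 for Pklr (SE 0.15, adjusted p = 0.00746), -0.80 for Gys2 (SE 0.06, adjusted p = 0.00363), -0.61 for Slc2a2 (SE 0.06, adjusted p = 0.00615) and 0.96 for Irs2 (SE 0.10, adjusted p = 0.00739). These pooled calls rested less on single arrays: leaving out any 1 array ended only that of Pfkfb3, without control replicate 3 (adjusted p = 0.0559). An exact permutation test of single genes, 3 controls against 4 arrays after Cre, two-sided, gave p = 0.0571 for each of these 5 genes, which is the smallest value that this design allows. By the same exact test the values were 0.229 for G6pc, 0.114 for Fbp1 and 0.4 for Pck1.

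Between the later times, 0 of the 8 genes passed by limma, and 1 of all 16819 genes did (0.00595%). At an unadjusted p under 0.05, 2 of the 8 differed, against 7.43% of all genes. Slc2a2 was 0.55 log2 units higher at 4 weeks than at 2 weeks (SE 0.08, 95% interval 0.36 to 0.74, adjusted p = 0.27), and Irs2 was at -0.52 (SE 0.13, 95% interval -0.85 to -0.18, adjusted p = 0.506). For Pfkfb3, Pklr and Gys2 the log2 differences between the times were 0.17, 0.02 and 0.03. Their 95% intervals ran from -0.67 to 1.0 for Pfkfb3, from -0.46 to 0.50 for Pklr and from -0.15 to 0.22 for Gys2.

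Among the controls, the genes did not vary together in 1 direction. Control replicate 1 was the highest of the 3 for Pfkfb3, Pck1 and Irs2 and the lowest for Pklr, Gys2, G6pc, Fbp1 and Slc2a2. Control replicate 2 was the lowest for Pfkfb3, Pck1 and Irs2 and the highest for Pklr, G6pc and Fbp1. Pfkfb3 and Pklr, which both fell after Cre, thus ranked the control livers in opposite order. The control range was 0.88 log2 units for Pfkfb3 and 0.51 for Pklr, against 0.07 for G6pc and 0.11 for Slc2a2. Over all 7 arrays, which share the group differences, Pearson's r was 0.98 between Pklr and Gys2, 0.86 between Pfkfb3 and Pklr, and -0.96 between Slc2a2 and Irs2.

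The genes whose log2 signal ran most like each changed gene over the 7 arrays were taken as the 3 with the highest Pearson's r. For Pfkfb3 these were Efhd2 (r = 0.989), Ntmt1 (0.987) and Bnip3 (0.984), and 283 genes had an r above 0.9. For Pklr they were Sec61a1 (0.987), Crebl2 (0.986) and Dhrs7 (0.985), and for Gys2 Ptcd3 (0.998), Atg5 (0.998) and Pdzd11 (0.997). For Slc2a2, 99 genes had an r above 0.9, led by Vmac (0.984), Rnf130 (0.976) and Amz2 (0.974). Those nearest to Irs2 were Trappc9 (0.994), Ncoa5 (0.994) and Abtb2 (0.99). With 7 arrays in 3 groups these coefficients mostly restate the group means, and they are given as a description.

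Other genes of glucose metabolism were read from 9 lists with 137 measured members. The lists were chosen with earlier results of these data known and were not matched to all genes by level. Their shares are therefore given as a description. At 2 weeks 8 rose and 9 fell, 12.4% of them against 5.93% of all genes. At 4 weeks 13 rose and 14 fell, 19.7% against 9.77%. With only genes above the median level kept, 29 listed genes and 1720 of all genes passed at 2 weeks. At 4 weeks 36 and 2226 did. Fewer genes were tested in that refit and more of them passed. The shares of all genes were thus above 5.93% and 9.77%, and those of the listed genes above 12.4% and 19.7%. The shares given before are therefore not a comparison at like level. The median log2 difference over the 137 genes was -0.01 and 0.00, close to those over all genes. Without Cre 2 wk replicate 1 the count at 2 weeks was 28, and it was 7 without replicate 2, 4, 4 and 1 without control replicate 1, 2 or 3, and 9 without either 4 week array. The count at 4 weeks was 7, 4 and 3 without control replicate 1, 2 or 3, and 2 without either 4 week array. Of the 17 calls named below at 2 weeks, 13 were kept without Cre 2 wk replicate 1, 6 without its partner, 4, 3 and 1 without control replicate 1, 2 or 3, and 8 without either 4 week array. Of the 25 at 4 weeks, 20 were kept without either 2 week array, 6, 4 and 3 without control replicate 1, 2 or 3, and 2 without either 4 week array. Thrsp kept its call at both times in all these fits, and 0 of the calls changed sign.

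**Figure D3:**
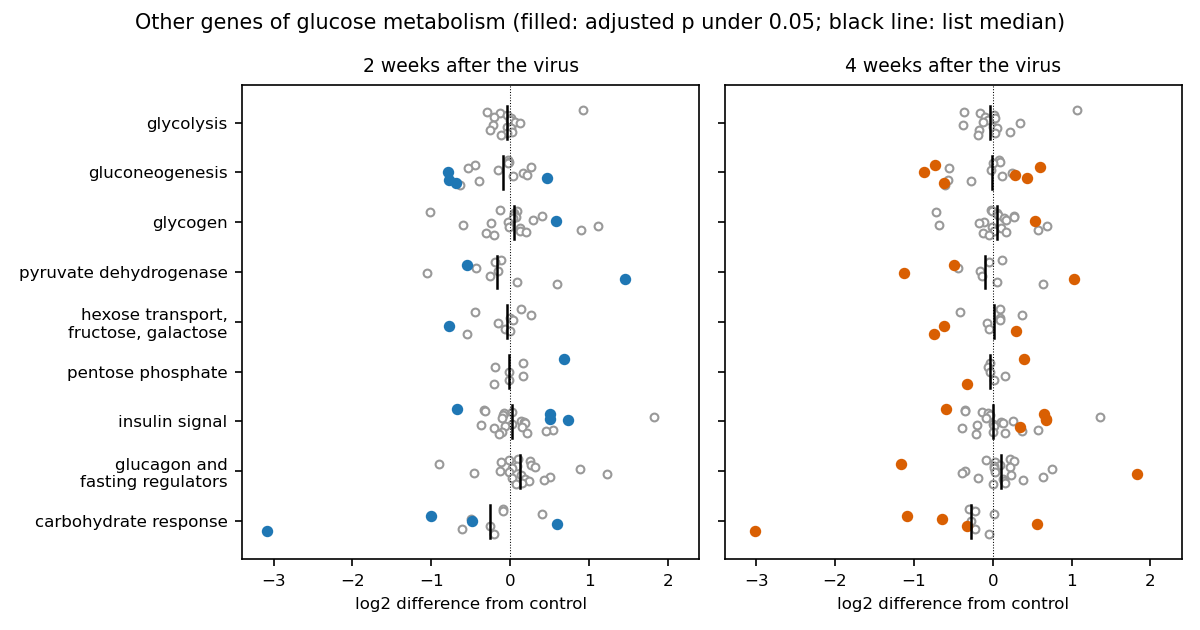
Log2 difference from control (horizontal axis) of each measured gene in the 9 lists of glucose metabolism (vertical axis) at 2 weeks (left) and 4 weeks (right); filled points passed an adjusted p of 0.05, and black lines are list medians. Passing genes lie on both sides of 0 in gluconeogenesis, pyruvate dehydrogenase, insulin signal and carbohydrate response at both times, glycolysis has none at either time, and Thrsp (-3.08 and -3.02) lies farthest to the left.

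Of 16 other glycolytic genes measured, 0 passed at 2 or 4 weeks by limma, against 5.93% and 9.77% of all genes. Their medians were -0.04 and -0.03. At an unadjusted p under 0.05, 1 and 5 differed, against 23% and 24.8% of all genes. The aldolase gene Aldoa, named after its values were seen, was at 0.92 and 1.07 on the log2 scale (adjusted p = 0.116 and 0.0681). It passed over both times (log2 0.99, SE 0.23, adjusted p = 0.044), but not without control replicate 1, 2 or 3 (0.147, 0.12 and 0.144) or Cre 4 wk replicate 1 or 2 (0.106 and 0.144). At 2 weeks Aldoa was at 1.37 without Cre 2 wk replicate 1 (0.0204) and at 0.46 without replicate 2 (0.229), and at 4 weeks it passed without either 2 week array (0.0198 in each). The hexokinase gene Hk1 was at -0.20 and -0.10. Of 21 other glycogen genes, 1 rose at each time, Phka2, a regulatory subunit of phosphorylase kinase (log2 0.58, SE 0.09, adjusted p = 0.0274, and 0.54, adjusted p = 0.0235). Over all genes 3.46% rose at 2 weeks and 5.15% at 4 weeks, so 1 of 21 is near those shares. The liver glycogen phosphorylase gene Pygl was at 0.20 and 0.17 and did not pass.

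In gluconeogenesis, genes around the committed steps moved both ways. Slc37a4, the carrier that brings glucose-6-phosphate to glucose-6-phosphatase, was 1.60-fold lower at 2 weeks (adjusted p = 0.0282) and 1.54-fold lower at 4 weeks (adjusted p = 0.0258). Gpt2, the mitochondrial alanine transaminase, was 1.73-fold and 1.82-fold lower (adjusted p = 0.0466 and 0.0284). Slc25a10, the mitochondrial dicarboxylate carrier, was 1.70-fold lower at 2 weeks (adjusted p = 0.0458). At 4 weeks it was at -0.57 on the log2 scale without passing by limma (adjusted p = 0.0707). Pcx, the pyruvate carboxylase that makes oxaloacetate for Pck1, rose 1.39-fold and 1.36-fold (adjusted p = 0.0447 and 0.0396). At 4 weeks the glycerol phosphate dehydrogenase gene Gpd1 (1.51-fold) and the malate dehydrogenase gene Mdh2 (1.21-fold) were higher too. At 2 weeks Gpd1 was at 0.27 and Mdh2 at 0.22 without passing by limma (adjusted p = 0.139 and 0.0728). In all, 1 of 16 rose and 3 fell at 2 weeks, and 3 rose and 3 fell at 4 weeks. Over all genes 3.46% rose and 2.47% fell at 2 weeks, and 5.15% rose and 4.62% fell at 4 weeks. Tat, the tyrosine transaminase, was at -0.64 and -0.60 (adjusted p = 0.0712 and 0.07). Over both times Tat passed (log2 -0.62, SE 0.13, limma, adjusted p = 0.0334).

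At the gate from pyruvate to acetyl-CoA, kinase genes moved both ways and a catalytic subunit gene fell. Pdk4, which inactivates pyruvate dehydrogenase by phosphorylation, read 7.17, 6.99 and 7.14 in controls, 8.72 and 8.40 in Cre 2 wk livers, and 8.25 and 8.01 in Cre 4 wk livers. It rose 2.75-fold (log2 1.46, SE 0.13, adjusted p = 0.00851) and 2.04-fold (log2 1.03, SE 0.13, adjusted p = 0.0134). Pdha1, the catalytic alpha subunit of that enzyme, was 1.47-fold and 1.4-fold lower (adjusted p = 0.0195 and 0.0187). Another kinase gene of the complex, Pdk1, was 2.08-fold lower at 2 weeks without passing by limma (adjusted p = 0.0658). It was 2.18-fold lower at 4 weeks (adjusted p = 0.0463). The kinase gene Pdk2 was at -0.26 and -0.14 on the log2 scale and did not pass. Of the 10 genes measured, 1 rose and 1 fell at 2 weeks, against 3.46% and 2.47% of all genes. At 4 weeks 1 rose and 2 fell, against 5.15% and 4.62%.

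Of 10 genes of hexose transport and of fructose and galactose use, 1 fell at 2 weeks, against 2.47% of all genes. At 4 weeks 1 rose and 2 fell, against 5.15% and 4.62%. The fructose transporter gene Slc2a5 was 1.72-fold and 1.54-fold lower (adjusted p = 0.0385 and 0.0497), and Tkfc, a kinase of fructose breakdown, was 1.67-fold lower at 4 weeks (adjusted p = 0.034). At 2 weeks Tkfc was at -0.55 without passing by limma (adjusted p = 0.0835). Slc2a9, a urate and hexose transporter, rose 1.23-fold at 4 weeks (log2 0.30, adjusted p = 0.018) and was level with control at 2 weeks. The fructokinase gene Khk was at -0.45 and -0.42 (adjusted p = 0.117 and 0.118). In the pentose phosphate pathway, H6pd of the endoplasmic reticulum rose 1.60-fold and 1.31-fold (adjusted p = 0.0179 and 0.0442). The transketolase gene Tkt was at -0.20 at 2 weeks without passing by limma (adjusted p = 0.0931). It was 1.26-fold lower at 4 weeks (adjusted p = 0.0245). Among 7 genes, H6pd was the 1 call at 2 weeks, against 5.93% of all genes. H6pd and Tkt were the 2 calls at 4 weeks, against 9.77% of all genes.

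Of 24 other genes of insulin signalling, 3 rose (12.5%, against 3.46% of all genes) and 1 fell (4.17%, against 2.47%) at 2 weeks. At 4 weeks 4 rose (16.7%, against 5.15%) and 1 fell (4.17%, against 4.62%). Insr, the insulin receptor, rose 1.41-fold and 1.60-fold (adjusted p = 0.0134 and 0.00663). Irs1, the other main docking protein of the liver, rose 1.66-fold and 1.60-fold (adjusted p = 0.0482 and 0.0442). With the mean of its probe sets Irs1 was at 0.34 at 2 weeks and did not pass (0.058). Grb14, an adaptor that inhibits the receptor, rose 1.42-fold and 1.57-fold (adjusted p = 0.0343 and 0.0158). Pik3r3, a regulatory subunit of the lipid kinase, rose 1.27-fold at 4 weeks (adjusted p = 0.0279). At 2 weeks it was at 0.15 without passing by limma (adjusted p = 0.217). The kinase gene Akt1 was 1.59-fold and 1.51-fold lower (adjusted p = 0.0266 and 0.0265), and Akt2 was at -0.33 and -0.35 without passing. Igfbp1, a secreted protein that insulin represses, was at 1.83 and 1.36 (adjusted p = 0.0527 and 0.0867), and its controls ranged from 9.80 to 11.04. Over both times Igfbp1 passed (log2 1.59, SE 0.32, limma, adjusted p = 0.0304), while Akt2 did not (adjusted p = 0.102).

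**Figure D4:**
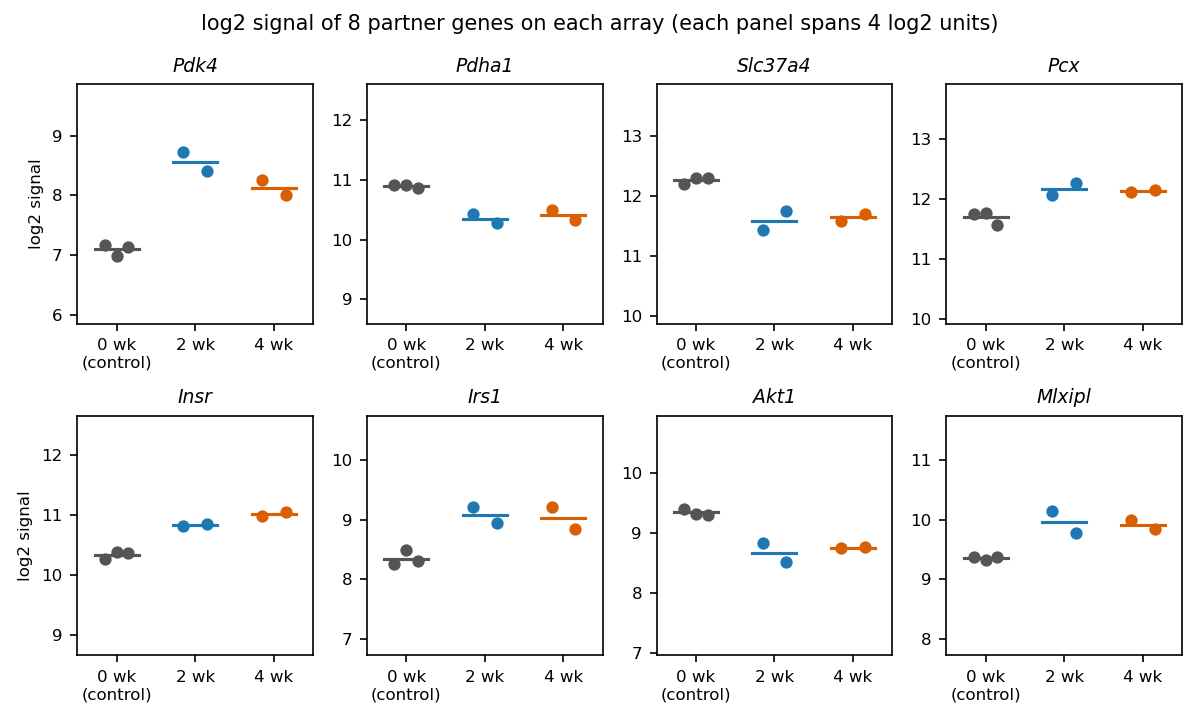
Log2 signal (vertical axis) of 8 partner genes of glucose metabolism on each of the 7 arrays by week after the virus (horizontal axis); points are arrays, lines are group means, and the 8 genes were picked after their values were seen. Pdk4, Pcx, Insr, Irs1 and Mlxipl lie higher and Pdha1, Slc37a4 and Akt1 lower on all arrays after Cre than on any control array.

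Of 22 glucagon and fasting regulators, 0 passed at 2 weeks by limma, against 5.93% of all genes. At an unadjusted p under 0.05, 9 of them differed then, against 23% of all genes. At 4 weeks 1 rose and 1 fell, against 5.15% and 4.62% of all genes. These were Nr0b2, a nuclear receptor that represses other receptors (3.55-fold higher, adjusted p = 0.0213), and the transcription factor gene Cebpb (2.23-fold lower, adjusted p = 0.0258). At 2 weeks Nr0b2 was at 1.23 and Cebpb at -0.90 on the log2 scale (limma, adjusted p = 0.0652 and 0.0588). Neither overlapped the controls at that time, and neither passed between the times (adjusted p = 0.747 and 0.817). Of 11 genes listed under carbohydrate response, both regulators and targets, 1 rose and 3 fell at 2 weeks, against 3.46% and 2.47% of all genes. At 4 weeks 1 rose and 4 fell, against 5.15% and 4.62%. Thrsp, a promoter of fatty acid synthesis, was 8.45-fold and 8.09-fold lower (adjusted p = 0.0024 and 0.00156), and the elongase gene Elovl6 2.00-fold and 2.12-fold lower (adjusted p = 0.0123 and 0.00867). Mlxipl encodes ChREBP, the factor that binds the carbohydrate response element of Pklr, and it rose 1.52-fold and 1.48-fold (adjusted p = 0.0458 and 0.0412). Its partner gene Mlx was 1.39-fold lower at 2 weeks (adjusted p = 0.0341) and at -0.27 at 4 weeks without passing by limma (adjusted p = 0.0968). Nr1h3, a sterol receptor, was at -0.26 at 2 weeks without passing (adjusted p = 0.0844). It was 1.26-fold lower at 4 weeks (adjusted p = 0.0377). On these arrays Mlxipl rose and Pklr fell. Thrsp and Elovl6 were lower at both times, like Pklr, and Mlx passed at 2 weeks only. Other genes of the list, Txnip, Arrdc4, Srebf1, Acly and Acaca, did not pass at either time. Their log2 differences ran from -0.61 to 0.41 at 2 weeks and from -0.30 to 0.01 at 4 weeks. ChREBP activity was not measured here, and a link between these genes was not tested.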

How the data were processed

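Whole liver RNA of 7 mice was measured on 7 whole-transcript arrays (biotin label, Affymetrix sense target assay, per the labels' protocols). The authors deposited log2 signals, 1 per probe set and array. That scale was read from the values, which run from 3.15 to 14.7. The submitters' processing notes name GCOS 1.4 and no step it was used for. Summarisation and normalization remain unstated (not given in the sources used here), and array medians lay between 7.073 and 7.09. No detection calls or scan dates came with the values, and the number of arrays limits the precision. The labels call arrays of a group biological replicates.

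Of 21093 probe sets, 17709 had 1 gene symbol, 187 several and 3197 none. The probe set with the highest mean was kept for each of 16819 genes. Symbols were checked by gene number against RefSeq (17648 matched, 0 changed). The genes of the set and all lists were chosen with earlier results of these data known.

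A linear model with 3 groups was fitted to all genes with limma 3.58.1 in R 4.3.3 (lmFit, eBayes; 4 residual and 1.69 prior degrees of freedom), two-sided, with Benjamini-Hochberg adjustment over all genes. An adjusted p under 0.05 counted as called. The steps were tested on simulated data. Named beside the set were, per list and comparison with control, up to 4 passing genes, taken by adjusted p. Up to 2 others with the highest mean level were also drawn up, but only some of these were named, by no fixed rule. Left out of the text were Ldha, Mdh1, Pgm1, Dld, Galt, Pgd, Rpe, Hnf4a, Creb3l3, Fasn, Hlf and Cry2. For each changed gene the 3 genes with the highest Pearson's r, clone-like names left out, were named too. Lists were described by counts and medians, with no set test. Alternatives covered scaling, filtering, probe set choice, variance prior, groups in the fit, the replicate number and each array left out.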

Additional observations from a re-analysis of the deposited data

Results flagged for a closer look

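Nr1d1, a clock repressor, was the 1 gene named here whose difference between the later times passed the threshold. It read 9.11, 9.23 and 9.08 in controls, 8.27 and 8.59 in Cre 2 wk livers, and 11.14 and 11.01 in Cre 4 wk livers. The difference of 4 weeks against 2 weeks was 2.65 on the log2 scale (adjusted p = 0.0155, limma). It was lost when any 1 array was left out, with log2 differences from 2.49 to 2.80 and adjusted p-values from 0.0755 to 0.362. No group had the 4 or more arrays that a search for a single outlying array needs.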

How the results depend on the processing

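Of the 8 genes, the 5 called in each comparison with control kept their sign in all 15 refits, and all 5 stayed called under quantile normalization, median subtraction, the mean of probe sets, the trended or robust variance prior and the filter on low genes. In fits of the groups compared alone, 3 were called at 2 weeks, where Pfkfb3 (adjusted p = 0.0572) and Pklr (0.0505) were lost. At 4 weeks Slc2a2 was lost in such a fit and G6pc gained. Over both times, fitted as 1 Cre group against control, Slc2a2 was lost (0.0643). Of the other named calls, Irs1 (0.058, mean of probe sets, and 0.0519, trended prior), Gpt2 (0.0501, trended) and Mlxipl (0.0506, trended) were lost at 2 weeks, Pcx at both times and Mdh2 at 4 weeks under quantile normalization, and Slc2a5 at 4 weeks with the trend; in fits of the groups compared alone 8 of 17 and 20 of 25 were kept. With the replicate number as a block, 0 of the 8 were called at 2 weeks, at 4 weeks or over both times (adjusted p from 0.112 to 0.16, 0.0857 to 0.168 and 0.0675 to 0.0989), and 0, 2, 0 and 5 of all genes at 2 weeks, at 4 weeks, between the times and over both. Deviations of same-numbered arrays correlated at 0.00871, -0.00296, -0.0638, -0.0651 and 0.111. In a group of 2 arrays the deviations mirror each other, so these values cannot decide whether the numbers pair the arrays. The block leaves fewer residual degrees of freedom.

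With 1 array left out, 0 to 4 of the 8 genes were called at 2 weeks, 0 to 5 at 4 weeks, 0 between the times and 4 to 6 over both; all genes called ranged from 41 to 2168, from 63 to 1948, 0, and from 570 to 2788. All genes called at 2 weeks were 997 in the reported fit, 1720 with the filter on low genes, 276 in the fit of these groups alone and 2081 at an adjusted p under 0.10. At that threshold they were 2729 at 4 weeks (reported 1643) and 3282 over both times (reported 2171). Between the times the count of 1 became 0 in the fit of these groups alone. Signs turned only for differences that had not passed: G6pc at 2 weeks ranged from -0.36 to 0.05 and Pck1 from -0.07 to 0.26, Slc2a9 at 2 weeks from -0.01 to 0.02 (0.00 with array medians subtracted), and between the times Pfkfb3 ranged from -0.15 to 0.48, Pklr from -0.17 to 0.21, Gys2 from -0.02 to 0.09, G6pc from -0.37 to 0.05 and Pck1 from -0.17 to 0.15. With 1 array in a group, that array is assumed to vary like the others.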

Other observations

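Of 15 circadian clock genes measured on the same arrays, 2 rose and 6 fell at 2 weeks (53.3%, against 5.93% of all genes), and 3 rose and 6 fell at 4 weeks (60.0%, against 9.77%). The clock list too was chosen with earlier results of these data known. Arntl, the core activator that binds E-boxes, read 7.57, 7.21 and 7.06 in controls, 9.27 and 9.37 in Cre 2 wk livers, and 8.96 and 8.80 in Cre 4 wk livers, 4.12-fold and 3.03-fold higher (adjusted p = 0.00732 and 0.00897, limma). Dbp, a clock output gene, was 5.32-fold and 3.19-fold lower (adjusted p = 0.00402 and 0.00851), Per3 2.59-fold and 2.17-fold lower (adjusted p = 0.00402 and 0.00573), Nr1d2, a repressor, 2.90-fold lower at 2 weeks (adjusted p = 0.0068), and Ciart, another repressor, 7.26-fold and 6.25-fold lower (adjusted p = 0.00877 and 0.00867). With 1 array left out, the 5 calls given here at 2 weeks were all kept except those of Ciart and Nr1d2 without control replicate 3. The 4 at 4 weeks were kept except without either 4 week array, when 0 passed. The hour of liver collection (not given in the sources used here) and its part in the differences of the glucose genes were not tested.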
